A study of Mus musculus with 18 samples.

Results

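The chemokine ligands are the 45 genes of the deposited mouse kidney table whose symbol begins with Ccl, Cxcl, Cx3cl or Xcl and ends in a number with or without a letter, out of 29307 genes in all. They carry 39 different symbols, because the gene copies of Ccl19, Ccl21a, Ccl21b, Ccl21c and Ccl27a are listed separately. Of these, 31 had a level of at least 0.005 in at least 3 of 18 libraries and entered the tests across 16342 genes. The other 14 did not. Among them Xcl1 (a T and NK cell ligand) had 54 reads over all libraries, Ccl1 15, Cxcl15 14 and 1 copy of Ccl21b 2. The remaining 10 (Ccl26, Ccl27b, both copies of Ccl21a and of Ccl21c, the other copy of Ccl21b, the second Ccl19 and 2 further copies of Ccl27a) were at 0 reads in every library. The Ccl19, Ccl21 and Ccl27 copies are nearly identical, so their reads could not be assigned to 1 copy with certainty.

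Chemokines are small secreted or membrane-tethered proteins that bind G protein-coupled receptors on leukocytes and direct their movement. Their names follow the spacing of the first cysteines (CC, CXC, CX3C and XC). Inducible members attract neutrophils, monocytes or lymphocytes into injured tissue, and many of their genes carry sites for NF-ĸB, the transcription factor family released by the kinase IKKβ. Homeostatic members such as Cxcl12 position cells in healthy tissue. In the injured kidney tubular, endothelial, stromal and infiltrating cells can all make them.

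Kidney mRNA was sequenced in 6 groups of 3 libraries. IKKβ∆Tub mice carried Pax8-rt-TA-LC1Cre and IKKβ fl/fl, so that doxycycline deletes IKKβ along the tubule, and control mice carried IKKβ fl/fl alone (genotype WT in the labels). Both strains were given doxycycline from 6 weeks of age, followed by a washout. Kidneys were taken at baseline, without injury, or at 2 days (d2) or 14 days (d14) after ischemia reperfusion (I/R) injury by clamping of the left renal pedicle. The deletion concerns Pax8-expressing tubular cells and leaves IKKβ in leukocytes, endothelium and stroma. Every library is labelled as a pool of 2 mice, whereas the deposited key lists single mice for some, among them all 3 IKKβ∆Tub libraries of d14, so p-values measure the spread between libraries. In whole kidney, fewer cells of a type and less RNA per cell cannot be told apart.

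To show the NF-ĸB sites that some of these genes carry, the last 120 bases before the start of 4 inducible genes and the last 170 bases before that of Cxcl10 are printed 5′ to 3′ on the gene's strand, from RefSeq on GRCm38.p6. Capitals mark matches to the NF-ĸB consensus on either strand. The windows lie at chr5:90891125-90891244 (Cxcl1, + strand), chr5:90903779-90903898 (Cxcl2, +), chr5:90785981-90786100 (Cxcl3, +), chr1:83116646-83116765 (Ccl20, +) and chr5:92348890-92349059 (Cxcl10, - strand).
Cxcl1: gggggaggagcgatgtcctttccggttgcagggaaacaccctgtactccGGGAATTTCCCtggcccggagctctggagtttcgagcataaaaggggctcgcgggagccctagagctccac
Cxcl2: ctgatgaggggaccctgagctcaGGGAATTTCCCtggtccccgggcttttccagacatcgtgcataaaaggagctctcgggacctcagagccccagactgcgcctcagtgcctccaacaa
Cxcl3: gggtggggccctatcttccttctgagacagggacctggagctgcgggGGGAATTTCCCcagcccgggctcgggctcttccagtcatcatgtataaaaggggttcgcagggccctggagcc
Ccl20: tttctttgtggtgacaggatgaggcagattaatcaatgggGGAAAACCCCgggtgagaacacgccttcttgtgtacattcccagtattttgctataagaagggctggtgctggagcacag
Cxcl10: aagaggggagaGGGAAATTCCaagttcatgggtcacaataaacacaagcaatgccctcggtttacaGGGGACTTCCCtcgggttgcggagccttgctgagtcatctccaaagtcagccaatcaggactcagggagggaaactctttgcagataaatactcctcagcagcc
Cxcl1, Cxcl2 and Cxcl3 held the same 10 bases, GGGAATTTCC, beginning 71, 97 and 73 bases before the start, each with an overlapping match on the opposite strand 1 base further on. Ccl20 had a reverse-strand match 80 bases before its start. Cxcl10 had matches 159, 104 and 103 bases before its start, of which the last 2 overlap. A window from 250 bases before to 50 bases after the start was at hand for 21 of the 31 tested ligands, with 24 windows in all. Of these windows 7, each of another ligand, held the NF-ĸB consensus, against 8.46% of 32851 windows of all genes. Beyond the 5 printed these were Ccl9 and Ccl27a, whose match lies after the start. The AP-1 motif TGANTCA was found in 5 (Cxcl9, Cxcl10, Ccl9, Ccl27a and Ccl28), against 7.81% of all windows. The interferon response element was found in 3 (Cxcl10, Cxcl14 and Ccl19), against 3.44%. Both strands were searched, and a match describes letters, not binding. Windows of Ccl2, Ccl5, Ccl7 and Cxcl5 were not used here.

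The libraries differed beyond strain and injury. Baseline libraries held 26285452 to 66317182 reads and those after I/R injury 12306138 to 25933188. The key lists baseline libraries as new samples and those after injury as old samples, so that I/R injury cannot be told apart from batch, depth or animal series. Strain comparisons lie within a set, except that control d2 replicate 3 comes from another animal series than the other libraries of d2. Levels of Ikbkb, the gene of IKKβ, were 0.376 to 0.551 in IKKβ∆Tub and 0.736 to 0.861 in control at baseline, and 0.669 to 0.844 in IKKβ∆Tub and 1.11 to 1.21 in control at d14 (adjusted p = 0.0767 and 0.134). The strains overlapped at d2, with 0.846 to 0.986 in IKKβ∆Tub and 0.829 to 1.29 in control (adjusted p = 0.926). Vmn1r32 had no reads in control libraries of baseline and d14 and 0.0417 to 0.0846 in the IKKβ∆Tub ones, but 0.0156 and 0.0234 in replicates 1 and 2 labelled control at d2, whose genotype is therefore in doubt. Y-linked mRNA was present in 2, 3 and 0 IKKβ∆Tub libraries and 0, 1 and 2 control libraries at baseline, d2 and d14.

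Most chemokine ligands rose at d2 after I/R injury in both strains, and at d14 13 of 31 rose in IKKβ∆Tub and 22 in control. Levels are read counts divided by the 90th percentile of the library, changes are on log2(level + 0.005), and adjusted p come from limma with Benjamini-Hochberg correction over the 16342 genes, called below 0.05. At d2 against baseline, 23 of the 31 ligands rose and 1 fell in IKKβ∆Tub, where 35.4% of all genes rose and 14.9% fell. In control 20 rose and 0 fell, where 25.4% of all genes rose and 11.3% fell. At d14 against baseline, 13 rose and 1 fell in IKKβ∆Tub (28.3% and 11.2% of all genes), and 22 rose and 1 fell in control (32.5% and 17.3%). The IKKβ∆Tub count of 14 at d14 was 7 without IKKβ∆Tub d14 replicate 3, and 9 without IKKβ∆Tub d14 replicate 1 or baseline replicate 3. The d2 and d14 counts of a strain share its baseline libraries.

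The median change over the 31 ligands against baseline was 1.68 at d2 and 0.76 at d14 in IKKβ∆Tub, and 1.39 at d2 and 2.03 at d14 in control. With ligands that had no reads in a whole baseline group set at their lower bounds these medians were 1.78 and 0.89 in IKKβ∆Tub and 1.70 and 2.05 in control. The median over all genes also lay above 0 in these comparisons, at 0.25 and 0.25 in IKKβ∆Tub and 0.16 and 0.23 in control. With libraries rescaled to a common median ratio, the medians of all genes lay between -0.03 and 0.04, and those of the ligands were 1.57 and 0.71 in IKKβ∆Tub and 1.29 and 1.89 in control. The rescaled counts were 21 up and 1 down at d2 and 10 up and 1 down at d14 in IKKβ∆Tub, where 24.1% and 24.9% of all genes rose and fell at d2 and 18.9% and 18% at d14. In control they were 19 up and 0 down at d2 and 21 up and 3 down at d14, where 19.1% and 16.6% of all genes rose and fell at d2 and 24.7% and 23.2% at d14.

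**Figure D1:**
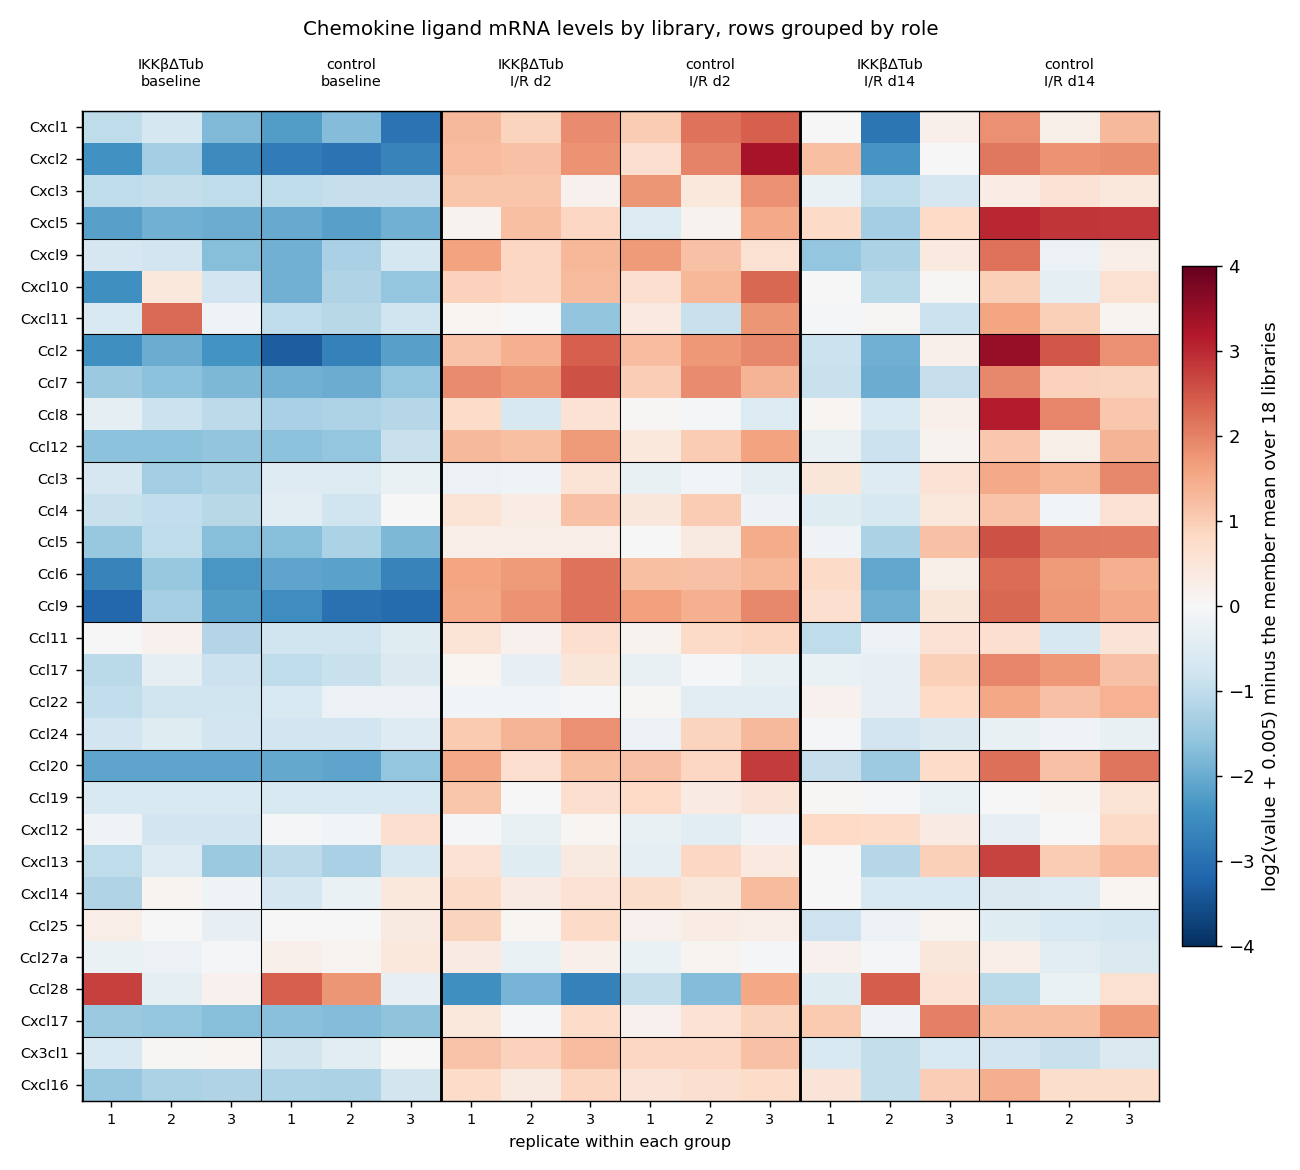
Colours give the mRNA level of the 31 tested ligands in each of 18 libraries as log2(level + 0.005) minus the ligand's mean over all libraries, with ligands grouped by role (horizontal lines) and libraries by group. Replicate 2 of IKKβ∆Tub at d14 is lower than the other d14 libraries for 22 of 31 ligands, and replicate 1 of control at d14 is the highest for 19.

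The libraries of d14 were also compared with those of d2. In IKKβ∆Tub 2 ligands rose and 14 fell (14.1% and 19.6% of all genes), with a median of -0.90 against -0.04 over all genes. In control 7 rose and 5 fell (16.8% and 18.2% of all genes), with a median of 0.13 against 0.02. The d14 mean lay above the d2 mean for 8 of 31 ligands in IKKβ∆Tub and for 16 of 31 in control. Without control d2 replicate 3, 7 ligands were called in control in place of 12. Without control d2 replicates 1 and 2 only replicate 3 remained, and no count is given. The IKKβ∆Tub count of 16 was 9 without IKKβ∆Tub d2 replicate 1 or 3, and 6 with Y-linked expression as a covariate. Whether single ligands changed differently between the strains is given below by the test of that difference.

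**Figure D2:**
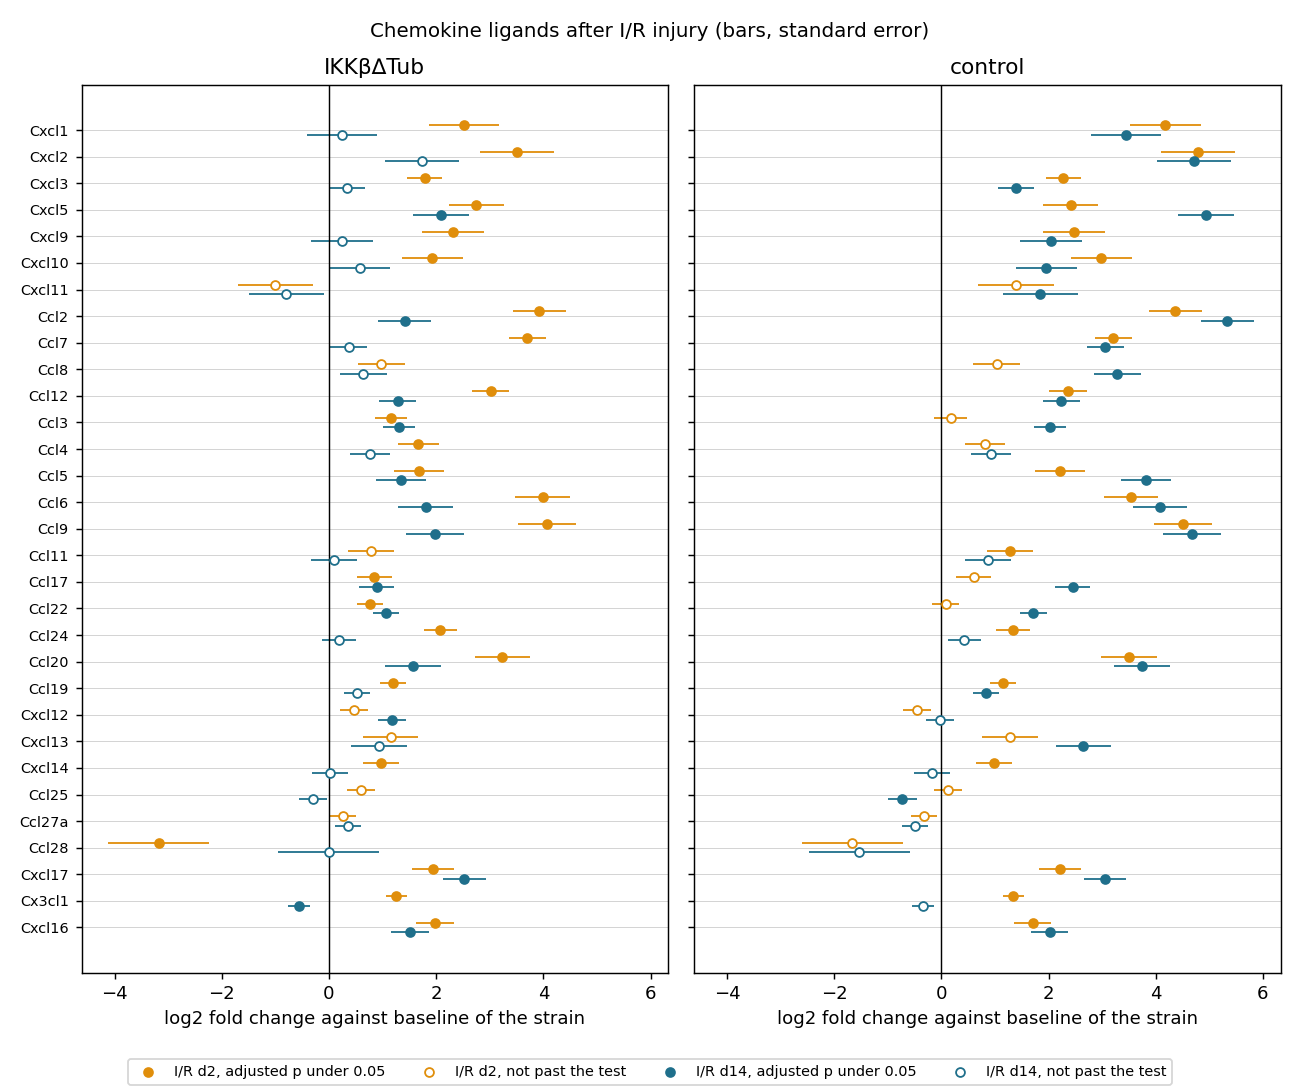
Log2 fold change of each tested ligand against the strain's own baseline (x axis) at d2 (orange) and d14 (blue), for IKKβ∆Tub (left) and control (right), with bars for 1 SE. Filled points passed the test (adjusted p under 0.05), and the d14 points of Cxcl1, Ccl2 and Ccl7 lie at 0.25, 1.41 and 0.37 in IKKβ∆Tub and at 3.44, 5.34 and 3.06 in control. The direct strain test at d14 called Ccl2 and Ccl7 but not Cxcl1.

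Of the neutrophil-attracting CXC ligands, which bind CXCR2, all 4 tested rose at d2 in both strains and at d14 in control. Only Cxcl5 was called at d14 in IKKβ∆Tub. Of all genes, 35.4% rose at d2 and 28.3% at d14 in IKKβ∆Tub, and 25.4% and 32.5% in control. The direct strain test at d14 called 1 of the 4 lower, where 0.3% of all genes were. Both tests of the strain difference over time called 0. Cxcl1, the main mouse counterpart of the GRO chemokines, had levels of 0.071, 0.089 and 0.0402 at baseline, 0.371, 0.28 and 0.559 at d2 and 0.146, 0.0154 and 0.17 at d14 in IKKβ∆Tub libraries. In control libraries Cxcl1 was at 0.0271, 0.0404 and 0.0148 at baseline, 0.306, 0.687 and 0.796 at d2 and 0.54, 0.176 and 0.37 at d14. Replicate 2 of IKKβ∆Tub at d14 was below all baseline libraries but 1, while the other IKKβ∆Tub libraries of d14 were above every baseline library. Cxcl1 rose at d2 by 2.52 (SE 0.66, adjusted p = 0.00474) in IKKβ∆Tub and by 4.18 (SE 0.66, adjusted p = 0.000142) in control. At d14 the change was 0.25 (SE 0.66, adjusted p = 0.789) in IKKβ∆Tub and 3.44 (SE 0.66, adjusted p = 0.000475) in control. Against d2, Cxcl1 fell at d14 in IKKβ∆Tub by 2.27 (SE 0.66, adjusted p = 0.0145), a call that was lost without IKKβ∆Tub d2 replicate 3, or without IKKβ∆Tub d14 replicate 2 (adjusted p = 0.0627 to 0.0638). Cxcl1 shares its NF-ĸB site with Cxcl2 and Cxcl3 in the sequences above.

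Cxcl2, made by macrophages among other cells, was at 0.00604, 0.0181 and 0.00523 at baseline, 0.135, 0.13 and 0.202 at d2 and 0.132, 0.00659 and 0.0553 at d14 in IKKβ∆Tub. Control libraries had Cxcl2 at 0.00366, 0.00276 and 0.00435 at baseline, 0.0901, 0.233 and 0.58 at d2 and 0.251, 0.204 and 0.21 at d14. Every library of d2 and of control d14 lay above every baseline library. Cxcl2 rose at d2 by 3.52 (SE 0.69, adjusted p = 0.000574) in IKKβ∆Tub and 4.79 (SE 0.69, adjusted p = 6.64e-05) in control, and at d14 by 4.72 (SE 0.69, adjusted p = 5.19e-05) in control. In IKKβ∆Tub the d14 change was 1.73 (SE 0.69, adjusted p = 0.0563), with replicate 2 inside the baseline range.

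Cxcl3, of the same family, was scarce at baseline, with 1 read over the IKKβ∆Tub libraries and 2 over the control ones. Its levels were 0, 0.000218 and 0 at baseline, 0.0167, 0.0169 and 0.00622 at d2 and 0.00343, 0 and 0.00133 at d14 in IKKβ∆Tub. For Cxcl3 in control they were 0, 0.000345 and 0.00029 at baseline, 0.029, 0.00832 and 0.0306 at d2 and 0.00742, 0.0101 and 0.00851 at d14. From summed reads it was 149-fold higher at d2 than at baseline in IKKβ∆Tub (95% counting interval 25.7 to 6003) and 122-fold in control (32.9 to 1022). The test called Cxcl3 at d2 in both strains (adjusted p = 0.000397 in IKKβ∆Tub and 7.91e-05 in control) and at d14 in control (adjusted p = 0.00279) but not in IKKβ∆Tub (adjusted p = 0.434). It fell between d2 and d14 in IKKβ∆Tub (-1.44, SE 0.33, adjusted p = 0.00397) and in control (-0.89, SE 0.33, adjusted p = 0.0487), where the call was lost without control d2 replicate 1 or 3, or without control d14 replicate 1, 2 or 3 (adjusted p = 0.0757 to 0.198).

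Cxcl5, a neutrophil attractant made by epithelia, had its highest levels in control at d14. IKKβ∆Tub libraries had Cxcl5 at 0, 0.000873 and 0.000713 at baseline, 0.0198, 0.0471 and 0.0346 at d2 and 0.0335, 0.00366 and 0.034 at d14. The control libraries had it at 0.000489, 0 and 0.00087 at baseline, 0.0104, 0.0197 and 0.0589 at d2 and 0.174, 0.159 and 0.153 at d14. Control d14 libraries lay close together and above all other libraries. The rise over baseline was 2.75 (SE 0.52, adjusted p = 0.000395) at d2 and 2.09 (SE 0.52, adjusted p = 0.00513) at d14 in IKKβ∆Tub, and 2.41 (SE 0.52, adjusted p = 0.00178) and 4.94 (SE 0.52, adjusted p = 4.12e-06) in control. On log2(level + 0.005) the step between d2 and d14 in control was the largest of any ligand, 2.53 (SE 0.52, adjusted p = 0.00143). It was -0.66 (SE 0.52, adjusted p = 0.339) in IKKβ∆Tub. Without control d2 replicates 1 and 2, which leaves replicate 3 alone, the step in control was 1.39 for Cxcl5.

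Of the 4 CC ligands named monocyte chemoattractant proteins (MCP), 3 rose at d2 in both strains, and 2 rose at d14 in IKKβ∆Tub and 4 in control. Of all genes, 35.4% rose at d2 and 28.3% at d14 in IKKβ∆Tub, and 25.4% and 32.5% in control. The direct strain test at d14 called 3 of the 4 lower, where 0.3% of all genes were. Ccl2 (MCP-1), the main ligand of CCR2, lies on chromosome 11 (82035571 to 82037453 on GRCm38, + strand, ENSMUSG00000035385). In IKKβ∆Tub it was at 0.00756, 0.0124 and 0.00808 at baseline, 0.148, 0.178 and 0.355 at d2 and 0.0326, 0.0132 and 0.0739 at d14. Ccl2 in control was at 0.00195, 0.00552 and 0.0101 at baseline, 0.158, 0.222 and 0.256 at d2 and 0.762, 0.383 and 0.241 at d14. At d2 the strains overlapped, and at d14 the highest IKKβ∆Tub library lay below the lowest control library. The rise at d2 was 3.93 (SE 0.49, adjusted p = 1.09e-05) in IKKβ∆Tub and 4.36 (SE 0.49, adjusted p = 6.24e-06) in control. At d14 it was 1.41 (SE 0.49, adjusted p = 0.0327) in IKKβ∆Tub and 5.34 (SE 0.49, adjusted p = 1.89e-06) in control. The latter is 40.4-fold on the tested scale, whose added constant understates the fold of a ligand this low at baseline. Per kilobase of exon, the mean Ccl2 level in control was 0.00516 at baseline and 0.406 at d14. Between d2 and d14 Ccl2 fell in IKKβ∆Tub by 2.52 (SE 0.49, adjusted p = 0.00125), whereas the change in control was 0.97 (SE 0.49, adjusted p = 0.139). The small d14 rise in IKKβ∆Tub was lost without IKKβ∆Tub baseline replicate 1 or 3, or without IKKβ∆Tub d14 replicate 1 or 3 (adjusted p = 0.0718 to 0.181).

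Ccl7 (MCP-3) lies next to Ccl2 (chromosome 11, 82045712 to 82047525, + strand, ENSMUSG00000035373). Its levels in IKKβ∆Tub were 0.00201, 0.00131 and 0.000713 at baseline, 0.0677, 0.0609 and 0.111 at d2 and 0.00558, 0 and 0.00533 at d14. In control Ccl7 was at 0.000244, 0 and 0.00174 at baseline, 0.0335, 0.0673 and 0.0454 at d2 and 0.0696, 0.0326 and 0.0316 at d14. The 3 IKKβ∆Tub libraries of d14 lay below every library of d2 and of control d14, and replicate 2 had no reads. Ccl7 rose at d2 by 3.70 (SE 0.35, adjusted p = 5.7e-07) in IKKβ∆Tub and 3.21 (SE 0.35, adjusted p = 3.78e-06) in control. At d14 its change from baseline was 0.37 (SE 0.35, adjusted p = 0.417) in IKKβ∆Tub and 3.06 (SE 0.35, adjusted p = 7.18e-06) in control. Its drop between d2 and d14 in IKKβ∆Tub was -3.33 (SE 0.35, adjusted p = 3.78e-06), the largest of the 31 ligands, against -0.15 (SE 0.35, adjusted p = 0.77) in control.

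Ccl8 (MCP-2, chromosome 11, 82115185 to 82116799, + strand, ENSMUSG00000009185) rose in control at d14. It was at 0.00604, 0.00284 and 0.0019 at baseline, 0.0187, 0.0041 and 0.016 at d2 and 0.00987, 0.00439 and 0.0113 at d14 in IKKβ∆Tub. Ccl8 was at 0.000733, 0.00103 and 0.00145 at baseline, 0.00968, 0.00832 and 0.00471 at d2 and 0.121, 0.0496 and 0.0249 at d14 in control. Each control d14 library was above every other library. At d2 the change was 0.97 (SE 0.44, adjusted p = 0.0733) in IKKβ∆Tub and 1.03 (SE 0.44, adjusted p = 0.0751) in control, neither past the test. At d14 it was 0.64 (SE 0.44, adjusted p = 0.252) in IKKβ∆Tub and 3.28 (SE 0.44, adjusted p = 2.33e-05) in control, and in control Ccl8 also rose over d2 by 2.25 (SE 0.44, adjusted p = 0.000958).

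Ccl12 (MCP-5), a mouse CCR2 ligand in the same cluster, was nearly absent at baseline in IKKβ∆Tub, with 1 read over 3 libraries. IKKβ∆Tub libraries held 0, 0 and 0.000238 at baseline, 0.0333, 0.0307 and 0.0462 at d2 and 0.00772, 0.00366 and 0.012 at d14. The control libraries held Ccl12 at 0, 0.000345 and 0.00348 at baseline, 0.0156, 0.0265 and 0.0424 at d2 and 0.0278, 0.0133 and 0.0347 at d14. From summed reads it was 384-fold higher at d2 than at baseline in IKKβ∆Tub (95% counting interval 67.8 to 15273) and 85-fold higher at d14 (14.4 to 3437). The test called it higher at both times in IKKβ∆Tub (adjusted p = 4.39e-06 and 0.00861) and in control, by 2.36 (SE 0.35, adjusted p = 7.69e-05) at d2 and 2.24 (SE 0.35, adjusted p = 8.08e-05) at d14. Ccl12 fell between d2 and d14 in IKKβ∆Tub (-1.74, SE 0.35, adjusted p = 0.00133), with -0.12 (SE 0.35, adjusted p = 0.815) in control.

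**Figure D3:**
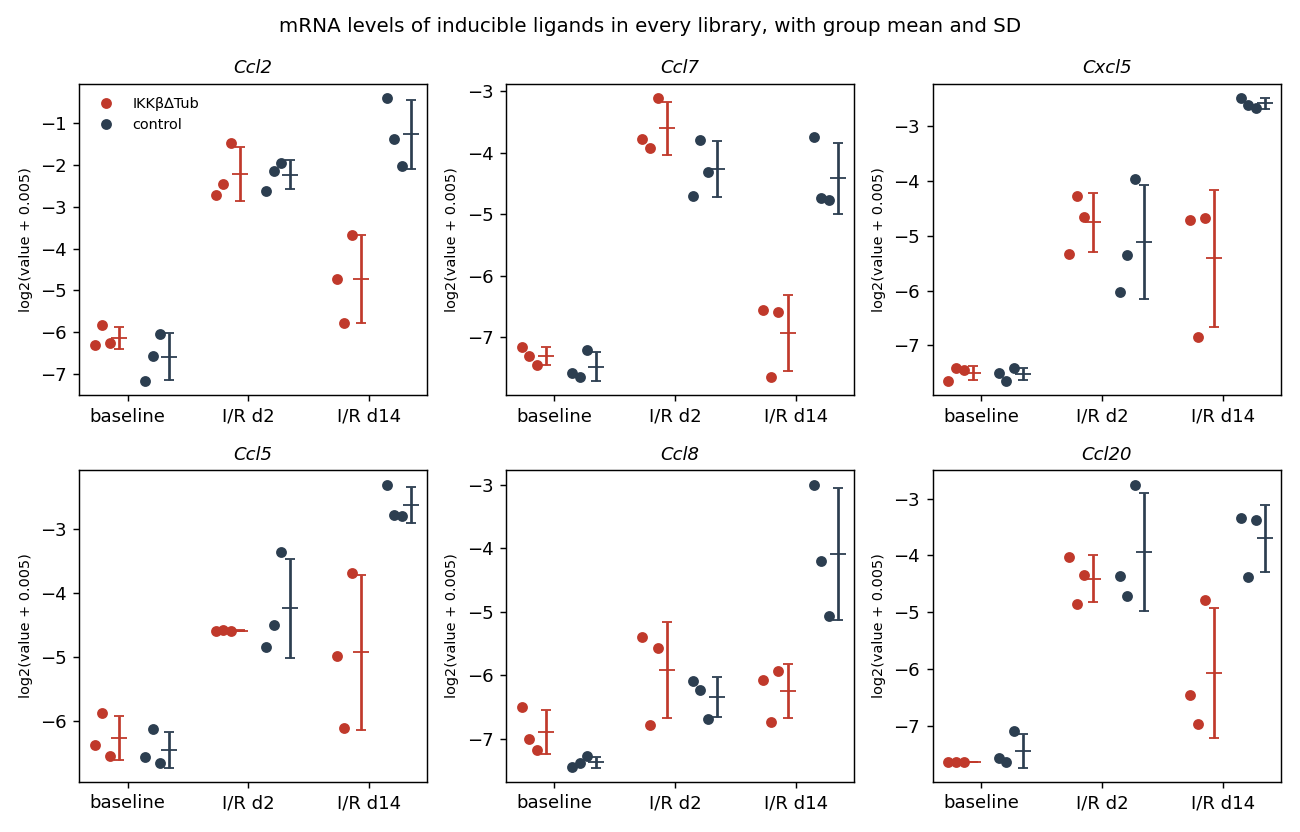
Levels of 6 inducible ligands on a log2(level + 0.005) axis in every library (points), with group mean and SD (bars), IKKβ∆Tub in red left of control in dark blue. The 6 include the 5 ligands called lower in IKKβ∆Tub at d14. At d14 every IKKβ∆Tub library lies below every control library for all 6, as for 17 of 31 tested ligands and 9.07% of all genes. Ccl2 is then at 0.0132 to 0.0739 in IKKβ∆Tub and 0.241 to 0.762 in control.

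Ccl5, a CC ligand that attracts T cells and monocytes, rose at d2 and d14 in both strains. Ccl5 (RANTES, chromosome 11, 83525778 to 83530518, - strand, ENSMUSG00000035042) was at 0.00705, 0.012 and 0.0057 at baseline, 0.0364, 0.0369 and 0.0364 at d2 and 0.0266, 0.00952 and 0.0726 at d14 in IKKβ∆Tub. Control Ccl5 was at 0.00562, 0.00931 and 0.00493 at baseline, 0.0298, 0.0393 and 0.0925 at d2 and 0.199, 0.141 and 0.139 at d14. The IKKβ∆Tub libraries of d2 were almost equal, and those of d14 spread from the baseline range to above d2. Ccl5 rose by 1.68 (SE 0.46, adjusted p = 0.00694) at d2 and 1.34 (SE 0.46, adjusted p = 0.0311) at d14 in IKKβ∆Tub, and by 2.21 (SE 0.46, adjusted p = 0.00154) and 3.82 (SE 0.46, adjusted p = 1.15e-05) in control. The d14 call in IKKβ∆Tub was lost without IKKβ∆Tub baseline replicate 1 or 3, or without IKKβ∆Tub d14 replicate 1 or 3 (adjusted p = 0.0639 to 0.188). Control also had more Ccl5 at d14 than at d2 (1.61, SE 0.46, adjusted p = 0.0133), a call that was lost without control d2 replicate 1 or 2 (adjusted p = 0.0511 to 0.0673). Without both of these, which leaves replicate 3 alone, the change was 0.74 for Ccl5.

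Ccl6 and Ccl9, rodent CCR1 ligands of myeloid cells, were among the strongest risers on the tested log2 scale. That scale understates the changes of low ligands more than those of Ccl6 and Ccl9, so the ranking holds for fitted changes only. Ccl6 was at 0.0388, 0.0928 and 0.0504 at baseline, 0.823, 0.904 and 1.25 at d2 and 0.467, 0.0608 and 0.318 at d14 in IKKβ∆Tub. For control, Ccl6 was at 0.0598, 0.058 and 0.0383 at baseline, 0.639, 0.621 and 0.689 at d2 and 1.29, 0.892 and 0.735 at d14. Its d14 replicate 2 of IKKβ∆Tub lay inside the baseline range. Ccl6 rose by 3.99 (SE 0.51, adjusted p = 1.16e-05) at d2 and 1.80 (SE 0.51, adjusted p = 0.0106) at d14 in IKKβ∆Tub, and by 3.54 (SE 0.51, adjusted p = 6.06e-05) and 4.08 (SE 0.51, adjusted p = 1.33e-05) in control. The d14 call in IKKβ∆Tub was lost without IKKβ∆Tub d14 replicate 1 or 3 (adjusted p = 0.054 to 0.0675), and from d2 to d14 Ccl6 fell there by 2.18 (SE 0.51, adjusted p = 0.00383).

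Ccl9 followed the same order. In IKKβ∆Tub the levels of Ccl9 were 0.0151, 0.0657 and 0.033 at baseline, 0.51, 0.605 and 0.798 at d2 and 0.28, 0.041 and 0.244 at d14. They were 0.0269, 0.0176 and 0.0159 at baseline, 0.545, 0.466 and 0.671 at d2 and 0.865, 0.581 and 0.498 at d14 in control. The 6 libraries of d2 and the 3 of control d14 all lay above every baseline library. Ccl9 rose by 4.06 (SE 0.54, adjusted p = 1.87e-05) at d2 and 1.97 (SE 0.54, adjusted p = 0.00927) at d14 in IKKβ∆Tub, and by 4.50 (SE 0.54, adjusted p = 1.11e-05) and 4.68 (SE 0.54, adjusted p = 7.93e-06) in control. In IKKβ∆Tub it fell between d2 and d14 by 2.09 (SE 0.54, adjusted p = 0.0077), and its d14 call against baseline was lost without IKKβ∆Tub d14 replicate 1 or 3 (adjusted p = 0.0519 to 0.0566).

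Ccl3 (MIP-1α) and Ccl4 (MIP-1β) stayed below 0.05 in every library. Ccl3 was at 0.00403, 0.000436 and 0.000951 at baseline, 0.00729, 0.00768 and 0.016 at d2 and 0.015, 0.00512 and 0.0166 at d14 in IKKβ∆Tub. It was at 0.00513, 0.00483 and 0.00696 at baseline, 0.0067, 0.00832 and 0.00589 at d2 and 0.0362, 0.0309 and 0.0498 at d14 in control. Control d14 libraries were the 3 highest. In IKKβ∆Tub it rose by 1.16 (SE 0.30, adjusted p = 0.00479) at d2 and 1.3 (SE 0.30, adjusted p = 0.00359) at d14. In control the d2 change was 0.17 (SE 0.30, adjusted p = 0.696) and the d14 rise 2.03 (SE 0.30, adjusted p = 6.2e-05). Ccl4 ranged from 0.000238 to 0.0204 and passed the test only at d2 in IKKβ∆Tub (1.67, SE 0.38, adjusted p = 0.0017), with 0.82 (SE 0.38, adjusted p = 0.0997) in control.

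The interferon-inducible ligands of CXCR3, which attract T and NK cells, gave 2 of 3 calls at d2 in both strains. At d14 they gave 0 of 3 in IKKβ∆Tub and 3 of 3 in control. Of all genes, 35.4% rose at d2 and 28.3% at d14 in IKKβ∆Tub, and 25.4% and 32.5% in control. The direct strain test at d14 and both tests of the strain difference over time called 0 of the 3. Cxcl10 (IP-10) was at 0.0217, 0.189 and 0.0813 at baseline, 0.272, 0.251 and 0.344 at d2 and 0.139, 0.0637 and 0.146 at d14 in IKKβ∆Tub. Control libraries had Cxcl10 at 0.0337, 0.0576 and 0.0449 at baseline, 0.225, 0.361 and 0.702 at d2 and 0.276, 0.108 and 0.216 at d14. The baseline replicate 2 of IKKβ∆Tub was above every d14 library of that strain. Cxcl10 rose at d2 by 1.93 (SE 0.57, adjusted p = 0.0102) in IKKβ∆Tub and 2.98 (SE 0.57, adjusted p = 0.000743) in control, and the call in IKKβ∆Tub was lost without IKKβ∆Tub baseline replicate 1 (adjusted p = 0.0606). At d14 it was 0.58 (SE 0.57, adjusted p = 0.439) in IKKβ∆Tub and 1.95 (SE 0.57, adjusted p = 0.00956) in control.

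Cxcl9 (MIG) was at 0.00806, 0.0072 and 0.00143 at baseline, 0.0594, 0.0323 and 0.048 at d2 and 0.00214, 0.00366 and 0.0226 at d14 in IKKβ∆Tub. Cxcl9 in control was at 0.000489, 0.00345 and 0.00783 at baseline, 0.0633, 0.0424 and 0.0265 at d2 and 0.0891, 0.0128 and 0.0201 at d14. Its d14 call in control was lost without control d14 replicate 1 (adjusted p = 0.0533). It rose at d2 by 2.32 (SE 0.58, adjusted p = 0.00372) in IKKβ∆Tub and 2.47 (SE 0.58, adjusted p = 0.00358) in control, and fell again in IKKβ∆Tub between d2 and d14 (-2.07, SE 0.58, adjusted p = 0.0125), a call that was lost without IKKβ∆Tub d2 replicate 1, or without IKKβ∆Tub d14 replicate 1 (adjusted p = 0.0545 to 0.0589). Cxcl11, annotated as a polymorphic pseudogene and partly overlapped by Gm2673 on the other strand, had its highest value, 0.0799, in replicate 2 of IKKβ∆Tub at baseline. The other values of Cxcl11 lay between 0.000888 and 0.0542. It passed the test only in control at d14 (1.85, SE 0.70, adjusted p = 0.0384), a call that was lost without control baseline replicate 1, 2 or 3, or without control d14 replicate 1 or 2 (adjusted p = 0.0607 to 0.131).

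Ccl20, the ligand of CCR6, had no reads in the IKKβ∆Tub libraries of baseline. Its levels in IKKβ∆Tub were 0 in all 3 at baseline, 0.0562, 0.0297 and 0.0444 at d2 and 0.00643, 0.00293 and 0.0313 at d14. Control had Ccl20 at 0.000244, 0 and 0.00232 at baseline, 0.0439, 0.0333 and 0.144 at d2 and 0.0937, 0.0432 and 0.0912 at d14. All libraries after injury were above all baseline libraries. Against a floor of 3 reads per baseline library, Ccl20 was at least 45.3-fold higher at d2 and at least 14.1-fold higher at d14 in IKKβ∆Tub (counting error only, adjusted p = 0.000103 and 0.0243). In control it rose by 3.50 (SE 0.52, adjusted p = 8.4e-05) at d2 and 3.74 (SE 0.52, adjusted p = 3.34e-05) at d14. It fell between d2 and d14 in IKKβ∆Tub (-1.67, SE 0.52, adjusted p = 0.0213), a call that was lost without IKKβ∆Tub d2 replicate 1 or 3, or without IKKβ∆Tub d14 replicate 1 or 2 (adjusted p = 0.0603 to 0.0996), with 0.24 (SE 0.52, adjusted p = 0.755) in control. The d14 call against baseline in IKKβ∆Tub was lost without IKKβ∆Tub baseline replicate 2 or 3, or without IKKβ∆Tub d14 replicate 3 (adjusted p = 0.0603 to 0.148).

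Ligands of CCR3 and CCR4, which attract eosinophils and T cells, divided by time. Ccl24 (eotaxin-2) was at 0, 0.00109 and 0 at baseline, 0.0125, 0.0169 and 0.0249 at d2 and 0.003, 0 and 0.000666 at d14 in IKKβ∆Tub. In control libraries Ccl24 was at 0, 0 and 0.00087 at baseline, 0.00223, 0.0106 and 0.0159 at d2 and 0.00186, 0.00267 and 0.00182 at d14. Its mean was highest at d2, where it rose by 2.08 (SE 0.31, adjusted p = 5.97e-05) in IKKβ∆Tub and 1.34 (SE 0.31, adjusted p = 0.00346) in control, and it changed by -1.89 (SE 0.31, adjusted p = 0.000339) in IKKβ∆Tub and -0.91 (SE 0.31, adjusted p = 0.0335) in control between d2 and d14. The fall in control was lost without control d2 replicate 2 or 3, or without control d14 replicate 1, 2 or 3 (adjusted p = 0.0611 to 0.178). In summed reads Ccl24 in control held 44 at d2, against 3 at baseline, a ratio of 35.1 (95% counting interval 11.3 to 177).

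Ccl17 and Ccl22, the CCR4 ligands known from dendritic cells and macrophages, were instead highest at d14 in control. Ccl17 was at 0.00101, 0.0048 and 0.0019 at baseline, 0.00833, 0.00512 and 0.0124 at d2 and 0.00558, 0.00512 and 0.0193 at d14 in IKKβ∆Tub. The Ccl17 levels of control were 0.00122, 0.00172 and 0.00348 at baseline, 0.00521, 0.00681 and 0.0053 at d2 and 0.0436, 0.0374 and 0.0231 at d14. Every control d14 library exceeded every other library. The rise at d14 was 0.89 (SE 0.33, adjusted p = 0.0391) in IKKβ∆Tub and 2.45 (SE 0.33, adjusted p = 2.37e-05) in control. At d2 the change was 0.84 (SE 0.33, adjusted p = 0.0406) in IKKβ∆Tub and 0.60 (SE 0.33, adjusted p = 0.161) in control. In IKKβ∆Tub the d2 call was lost without IKKβ∆Tub baseline replicate 1 or 3, or without IKKβ∆Tub d2 replicate 1 or 3 (adjusted p = 0.085 to 0.164) and the d14 call was lost without IKKβ∆Tub baseline replicate 1 or 3, or without IKKβ∆Tub d14 replicate 3 (adjusted p = 0.105 to 0.225).

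Ccl22 was at 0, 0.000655 and 0.000713 at baseline, 0.00416, 0.0041 and 0.00444 at d2 and 0.006, 0.00293 and 0.012 at d14 in IKKβ∆Tub. Control Ccl22 stood at 0.00147, 0.00345 and 0.00348 at baseline, 0.00521, 0.00227 and 0.00236 at d2 and 0.0241, 0.0171 and 0.0207 at d14. Here too the control d14 libraries were the 3 highest. Ccl22 rose by 0.76 (SE 0.25, adjusted p = 0.0174) at d2 and 1.07 (SE 0.25, adjusted p = 0.00348) at d14 in IKKβ∆Tub, and its change in control was 0.08 (SE 0.25, adjusted p = 0.83) at d2 and 1.72 (SE 0.25, adjusted p = 4.47e-05) at d14. The d2 call in IKKβ∆Tub was lost without IKKβ∆Tub baseline replicate 1 (adjusted p = 0.0506). Between d2 and d14 control rose by 1.64 (SE 0.25, adjusted p = 0.000125) for Ccl22 and 1.85 (SE 0.33, adjusted p = 0.000475) for Ccl17. Ccl11 (eotaxin-1) stayed between 0.0019 and 0.023 and passed the test only at d2 in control (1.28, SE 0.43, adjusted p = 0.0273), a call that was lost without control baseline replicate 1 or 2, or without control d2 replicate 2 or 3 (adjusted p = 0.0766 to 0.0951).

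At baseline the ligands with the most mRNA were homeostatic, tethered or epithelial ones. Per kilobase of exon, Cx3cl1, Cxcl12, Cxcl14, Cxcl16 and Ccl28 had the 5 highest mean levels of the tested ligands in both strains at baseline. Ccl6 was number 2 at d2 in IKKβ∆Tub and number 3 in control, and Ccl6 and Ccl2 were numbers 2 and 3 in control at d14. Cx3cl1, Cxcl12 and Cxcl16 together took 72.6 to 82.5% of ligand reads in IKKβ∆Tub and 75.4 to 87.9% in control at baseline. At d14 they took 76.2 to 80.6% in IKKβ∆Tub and 51.3 to 66% in control. Every control library of d14 thus had a lower share than every IKKβ∆Tub library of d14. As a sum of levels over all ligands, IKKβ∆Tub libraries had a median of 4.88 at baseline, 11.4 at d2 and 8.28 at d14. Control libraries had 5.2, 10.2 and 10.7.

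Cx3cl1 (fractalkine), a membrane-tethered ligand of CX3CR1 on monocytes and macrophages, peaked at d2. It was at 1.13, 1.8 and 1.81 at baseline, 3.83, 3.29 and 4.04 at d2 and 1.14, 0.898 and 1.13 at d14 in IKKβ∆Tub. For Cx3cl1 the control levels were 1.04, 1.28 and 1.7 at baseline, 3.07, 3.1 and 3.9 at d2 and 1.02, 0.939 and 1.15 at d14. All d2 libraries lay above all libraries of the other times. It rose at d2 by 1.26 (SE 0.20, adjusted p = 9.2e-05) in IKKβ∆Tub and 1.34 (SE 0.20, adjusted p = 8.57e-05) in control. By d14 it had fallen from d2 by 1.82 (SE 0.20, adjusted p = 6.33e-06) in IKKβ∆Tub and by 1.69 (SE 0.20, adjusted p = 1.37e-05) in control. Against baseline the d14 change was -0.56 (SE 0.20, adjusted p = 0.035) in IKKβ∆Tub, a call that was lost without IKKβ∆Tub baseline replicate 2 or 3, or without IKKβ∆Tub d14 replicate 1, 2 or 3 (adjusted p = 0.0523 to 0.143), and -0.34 (SE 0.20, adjusted p = 0.161) in control.

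Cxcl16, the second tethered ligand, which binds CXCR6 on T and NKT cells, remained high at d14. It was at 0.347, 0.414 and 0.43 at baseline, 1.66, 1.28 and 1.84 at d2 and 1.43, 0.518 and 1.97 at d14 in IKKβ∆Tub. Control libraries held Cxcl16 at 0.424, 0.414 and 0.603 at baseline, 1.43, 1.56 and 1.68 at d2 and 2.77, 1.62 and 1.62 at d14. Replicate 2 of IKKβ∆Tub at d14 was the lowest library after injury, above all IKKβ∆Tub baseline libraries and below the highest control baseline library. Cxcl16 rose by 1.98 (SE 0.35, adjusted p = 0.000226) at d2 and 1.51 (SE 0.35, adjusted p = 0.00333) at d14 in IKKβ∆Tub, and by 1.70 (SE 0.35, adjusted p = 0.00124) and 2.02 (SE 0.35, adjusted p = 0.000201) in control. Per kilobase it was the most abundant ligand in control at d14.

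**Figure D4:**
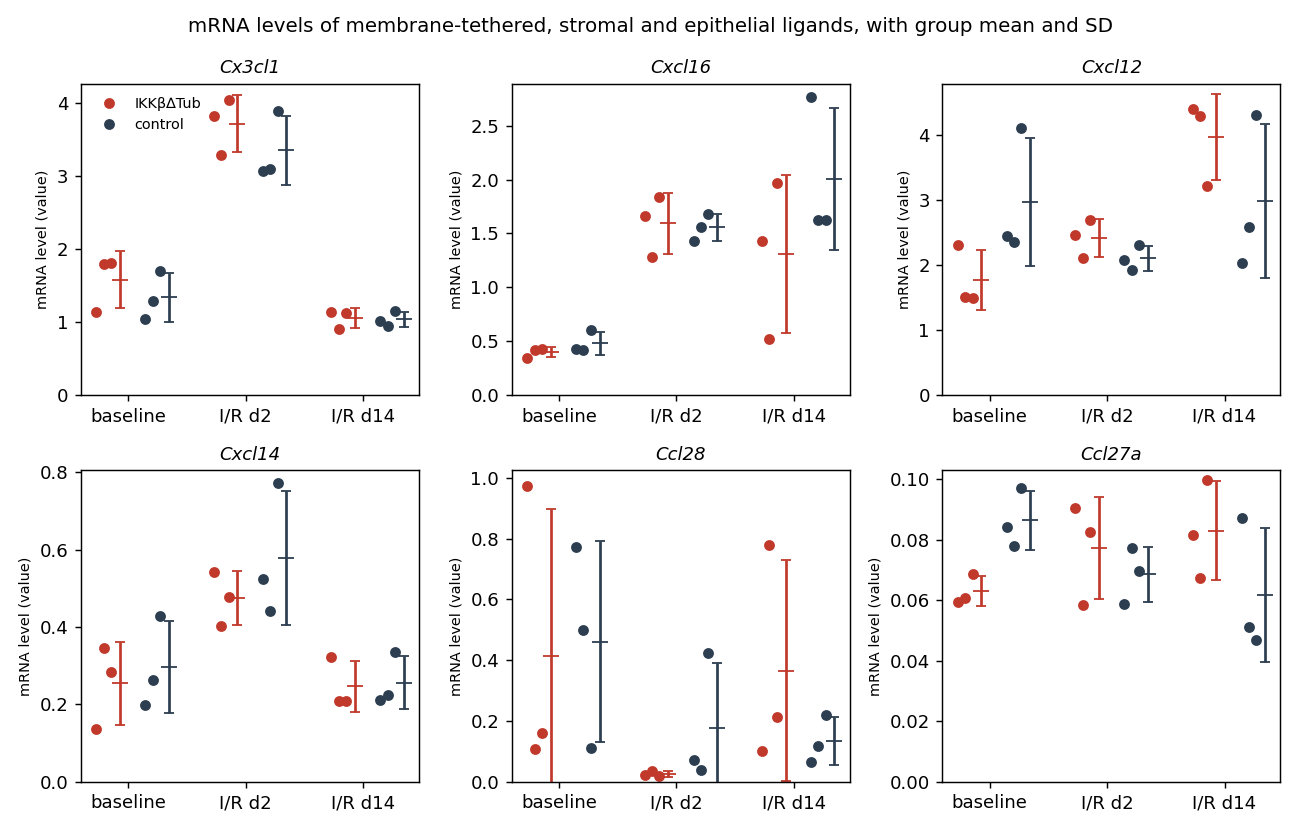
Levels of 6 membrane-tethered, stromal and epithelial ligands on linear axes from 0 in every library (points), with group mean and SD (bars, cut at 0), IKKβ∆Tub in red left of control in dark blue. Cx3cl1 peaks at d2 in both strains, at 3.29 to 4.04 in IKKβ∆Tub and 3.07 to 3.9 in control, while Ccl28 varies widely between libraries of a group.

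Among homeostatic ligands, Cxcl12 (SDF-1), the stromal ligand of CXCR4, was at 2.31, 1.51 and 1.5 at baseline, 2.46, 2.11 and 2.7 at d2 and 4.41, 4.3 and 3.22 at d14 in IKKβ∆Tub. In control it was at 2.46, 2.36 and 4.11 at baseline, 2.08, 1.93 and 2.32 at d2 and 2.04, 2.59 and 4.32 at d14. The baseline libraries of IKKβ∆Tub were all below those of control (log2 fold change -0.73, adjusted p = 0.208). Cxcl12 rose at d14 in IKKβ∆Tub by 1.18 (SE 0.26, adjusted p = 0.00266) against baseline and 0.71 (SE 0.26, adjusted p = 0.0467) against d2, where the call was lost without IKKβ∆Tub d2 replicate 1, 2 or 3, or without IKKβ∆Tub d14 replicate 1 or 2 (adjusted p = 0.0685 to 0.129). In control the d14 change was -0.02 (SE 0.26, adjusted p = 0.957) against baseline. It was the only ligand called higher at d14 and not at d2 in IKKβ∆Tub.

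Cxcl14 was at 0.135, 0.345 and 0.283 at baseline, 0.542, 0.403 and 0.479 at d2 and 0.321, 0.209 and 0.208 at d14 in IKKβ∆Tub. Control levels of Cxcl14 were 0.197, 0.264 and 0.429 at baseline, 0.524, 0.44 and 0.773 at d2 and 0.211, 0.224 and 0.335 at d14. It rose at d2 by 0.98 (SE 0.34, adjusted p = 0.0232) in IKKβ∆Tub and 0.98 (SE 0.34, adjusted p = 0.0302) in control, and the call in IKKβ∆Tub was lost without IKKβ∆Tub baseline replicate 1, or without IKKβ∆Tub d2 replicate 1 or 3 (adjusted p = 0.0594 to 0.135). That in control was lost without control baseline replicate 1 or 2, or without control d2 replicate 3 (adjusted p = 0.0842 to 0.146). Between d2 and d14 it fell by 0.95 (SE 0.34, adjusted p = 0.0382) in IKKβ∆Tub and by 1.15 (SE 0.34, adjusted p = 0.0142) in control. The fall in IKKβ∆Tub was lost without IKKβ∆Tub d2 replicate 1 or 3, or without IKKβ∆Tub d14 replicate 2 or 3 (adjusted p = 0.0916 to 0.125), and that in control was lost without control d2 replicate 3, or without control d14 replicate 2 (adjusted p = 0.0526 to 0.0726).

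Cxcl13, the B cell attractant that binds CXCR5, was at 0.00453, 0.00851 and 0.0019 at baseline, 0.0239, 0.0087 and 0.0195 at d2 and 0.0142, 0.00366 and 0.032 at d14 in IKKβ∆Tub. The control libraries had Cxcl13 at 0.0044, 0.00276 and 0.00725 at baseline, 0.00968, 0.0295 and 0.02 at d2 and 0.122, 0.0336 and 0.0401 at d14. It rose in control at d14, by 2.65 (SE 0.52, adjusted p = 0.000591) against baseline. In IKKβ∆Tub that change was 0.93 (SE 0.52, adjusted p = 0.165), with overlapping libraries. Ccl19, a CCR7 ligand of lymphoid tissue, had no reads in any baseline library and at most 0.0115 after injury. Against a floor of 3 reads per library, Ccl19 at d2 was at least 7.34-fold higher in IKKβ∆Tub and at least 7.06-fold higher in control (adjusted p = 0.000765 and 0.00162).

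The mucosal and epithelial ligands did not share a direction. Cxcl17, a mucosal chemoattractant, was at 0.00302, 0.00262 and 0.0019 at baseline, 0.025, 0.0164 and 0.032 at d2 and 0.0407, 0.0146 and 0.0852 at d14 in IKKβ∆Tub. Control had Cxcl17 at 0.00195, 0.00172 and 0.00232 at baseline, 0.0201, 0.028 and 0.0359 at d2 and 0.0464, 0.0464 and 0.0681 at d14. Every library after injury exceeded every baseline library, and the 2 strains overlapped at each time. Cxcl17 rose by 1.94 (SE 0.39, adjusted p = 0.000757) at d2 and 2.53 (SE 0.39, adjusted p = 0.000283) at d14 in IKKβ∆Tub, and by 2.21 (SE 0.39, adjusted p = 0.000413) and 3.05 (SE 0.39, adjusted p = 1.83e-05) in control. The d14 rise in IKKβ∆Tub was the largest fitted one of that strain on the tested log2 scale, which understates changes of low ligands. The highest estimates under other settings were 3.96 for Cxcl17, 4.97 for Cxcl5, 5.93 for Ccl12 and 7.74 for Ccl20.

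Ccl28, an epithelial ligand of CCR10 and CCR3, had the largest standard error of the tested ligands. It was at 0.973, 0.108 and 0.16 at baseline, 0.0219, 0.0353 and 0.0178 at d2 and 0.1, 0.78 and 0.214 at d14 in IKKβ∆Tub. Ccl28 in control libraries was at 0.772, 0.499 and 0.112 at baseline, 0.0707, 0.0393 and 0.423 at d2 and 0.064, 0.117 and 0.22 at d14. In IKKβ∆Tub the 3 libraries of d2 were below all libraries of baseline and d14, with a fall of -3.18 (SE 0.94, adjusted p = 0.0107) against baseline and a d14 rise over d2 of 3.17 (SE 0.94, adjusted p = 0.0169). The fall was lost without IKKβ∆Tub baseline replicate 1 (adjusted p = 0.0638), and the later rise was lost without IKKβ∆Tub d2 replicate 1 or 3, or without IKKβ∆Tub d14 replicate 2 (adjusted p = 0.0534 to 0.0807). In control the changes from baseline were -1.67 (SE 0.94, adjusted p = 0.18) at d2 and -1.53 (SE 0.94, adjusted p = 0.188) at d14.

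Ccl25, the CCR9 ligand, was at 0.0499, 0.0404 and 0.0319 at baseline, 0.0791, 0.0435 and 0.0728 at d2 and 0.0206, 0.0337 and 0.0446 at d14 in IKKβ∆Tub. The levels of Ccl25 in control were 0.041, 0.0417 and 0.0533 at baseline, 0.0462, 0.0514 and 0.0507 at d2 and 0.0278, 0.0251 and 0.0231 at d14. It fell in control at d14 (-0.73, SE 0.26, adjusted p = 0.0316 against baseline), a call that was lost without control baseline replicate 2 or 3, or without control d14 replicate 2 or 3 (adjusted p = 0.0544 to 0.0992). Against d2 it fell at d14 in both strains, by 0.90 (SE 0.26, adjusted p = 0.0162) in IKKβ∆Tub and 0.84 (SE 0.26, adjusted p = 0.0209) in control. The call in IKKβ∆Tub was lost without IKKβ∆Tub d2 replicate 1 or 3, or without IKKβ∆Tub d14 replicate 1 (adjusted p = 0.0665 to 0.0885), and that in control was lost without control d2 replicate 2 or 3, or without control d14 replicate 2 or 3 (adjusted p = 0.0555 to 0.0646). Ccl27a, the CCR10 ligand whose exons overlap Il11ra1 on the other strand, lay between 0.0468 and 0.0999 in all 18 libraries and passed no test over time.

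The strains were then compared within each time. At baseline no ligand passed the test, where 0.0428% of all genes did. The ligand median was 0.02 and that of all genes -0.09. An unadjusted p under 0.05 was reached by 2 ligands, both lower in IKKβ∆Tub, where 10.4% of all genes were. These were Cxcl12 and Ccl3 (Ccl3 -0.68, SE 0.30, adjusted p = 0.297). For the ligands edgeR called 0 and DESeq2 called 1, Cxcl11 (adjusted p = 0.023). Over all genes edgeR called 79 at baseline and DESeq2 738. Cxcl11 had 366 reads in IKKβ∆Tub baseline replicate 2, against 13 and 44 in the other IKKβ∆Tub baseline libraries and 9 to 18 in control. At d2 no ligand passed either, where 0% of all genes did, with a ligand median of 0.11. There 1 ligand, Ccl24, was higher in IKKβ∆Tub at an unadjusted p under 0.05 (0.76, SE 0.31, adjusted p = 0.713), where 2.45% of all genes were, and edgeR and DESeq2 called 0. Control d2 replicates 1 and 2 have a doubted genotype, and without them replicate 3 alone would stand for control. These libraries therefore cannot settle whether the strains differed at d2.

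At d14, 5 ligands were lower in IKKβ∆Tub than in control and 0 were higher, where 0.3% of all genes were lower and 0.0673% higher. Folds here are of level + 0.005, which understates the changes of low ligands such as Ccl7 and Ccl8 more than that of Ccl2. Ccl2 was 11.1-fold lower (-3.47, SE 0.49, adjusted p = 0.0046), Ccl7 5.73-fold lower (-2.52, SE 0.35, adjusted p = 0.00348) and Ccl8 4.48-fold lower (-2.16, SE 0.44, adjusted p = 0.0413). Cxcl5 was 7.11-fold lower (-2.83, SE 0.52, adjusted p = 0.0313) and Ccl5 4.94-fold lower (-2.30, SE 0.46, adjusted p = 0.0413). For each of these 5 every IKKβ∆Tub library lay below every control library, as it did for 17 of the 31 ligands, where this held for 9.07% of all genes. The mean change was below 0 for 26 of 31 ligands, with a median of -1.18 against -0.05 over all genes.

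A further 13 ligands had a lower mean in IKKβ∆Tub at d14 with an unadjusted p under 0.05, which made 18 of 31 in all, where 9% of all genes were lower at that p. These were Ccl20 (-2.37, SE 0.52, adjusted p = 0.0565), Cxcl2 (-2.31), Ccl6 (-2.14), Ccl9 (-2.10), Cxcl1 (-2.03), Cxcl13 (-1.72), Cxcl9 (-1.54), Ccl17 (-1.49), Ccl3 (-1.40), Ccl12 (-1.22), Ccl22 (-1.16), Cxcl3 (-1.08) and Cxcl16 (-0.77), with adjusted p of 0.0536 to 0.33. Libraries overlapped for Cxcl9 and Cxcl16. The ligands with a higher mean in IKKβ∆Tub were Ccl28 (1.09, SE 0.94, adjusted p = 0.684), Cxcl12 (0.47), Ccl27a (0.43), Ccl25 (0.27) and Cx3cl1 (0.02). Of the 11 tested ligands on chromosome 11, 4 were called lower and 8 had every IKKβ∆Tub library below control. These counts were 1 and 6 of 9 on chromosome 5 and 0 and 2 of 4 on chromosome 8. The share over all genes of each chromosome was not taken, and Ccl2, Ccl7 and Ccl8 are neighbours in the same cluster.

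**Figure D5:**
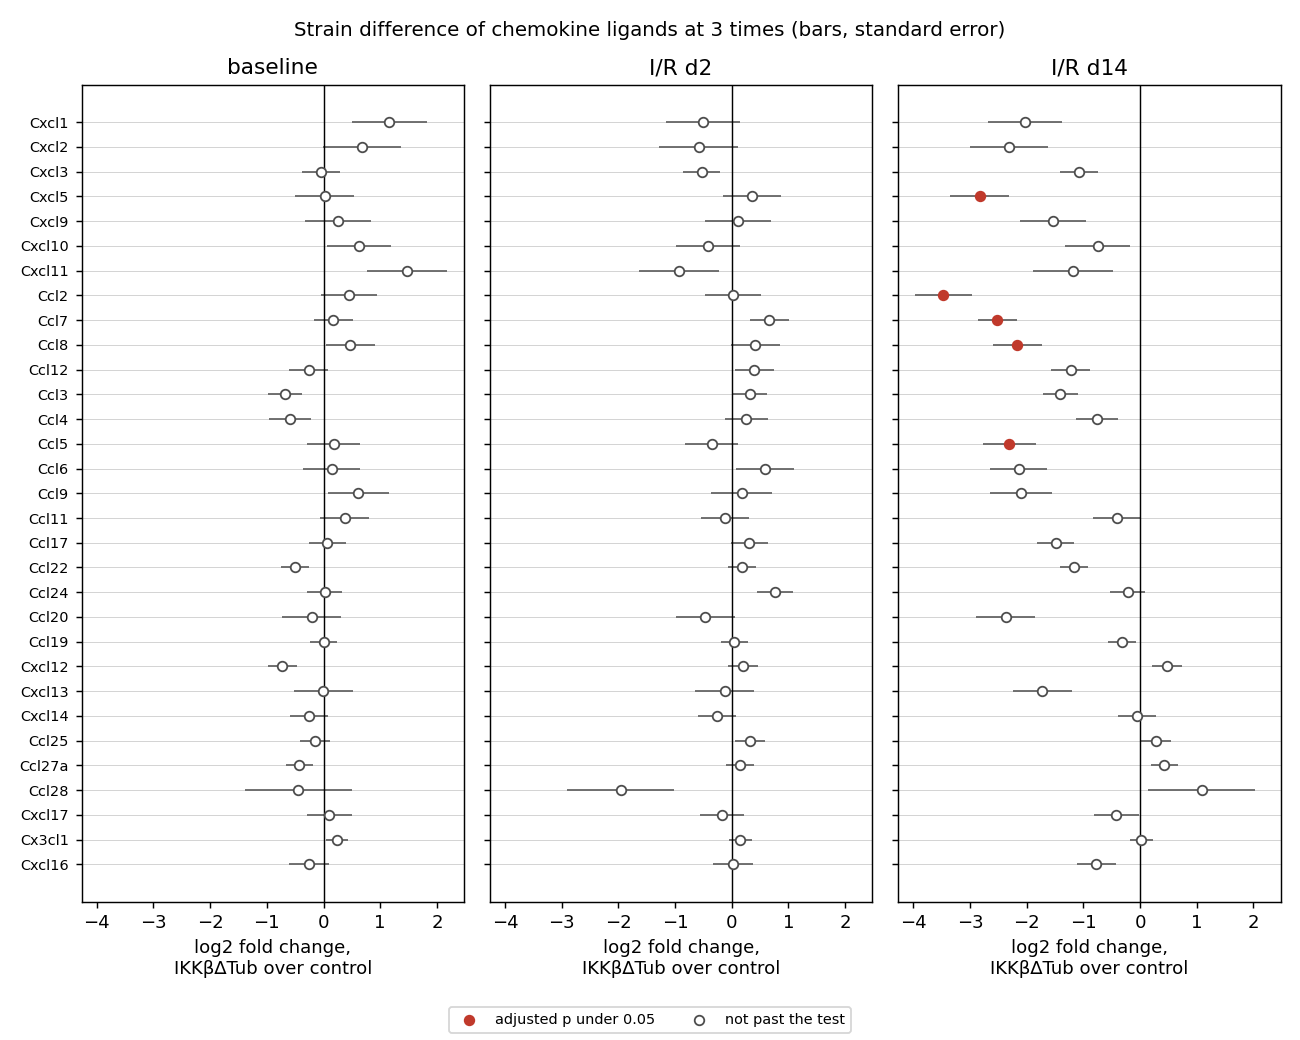
Log2 fold change of each tested ligand, IKKβ∆Tub over control (x axis), at baseline, d2 and d14, with bars for 1 SE and filled points for adjusted p under 0.05. Filled points occur at d14 alone, for Cxcl5, Ccl2, Ccl7, Ccl8 and Ccl5, between -3.47 and -2.16.

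These d14 calls rested in part on single libraries and on the method. Without IKKβ∆Tub d14 replicate 2, and likewise without control d14 replicate 1, 2 ligands were called, and 10 and 12 were called without IKKβ∆Tub replicate 1 and 3. Ccl2 and Ccl7 were called under each of the 6 omissions (Ccl2 -3.47 with all libraries and -2.94 without IKKβ∆Tub replicate 2, adjusted p = 0.026). Calls of Ccl5, Ccl8 and Cxcl5 were lost without IKKβ∆Tub replicate 2 (adjusted p = 0.176, 0.194 and 0.103) and without control replicate 1 (0.13, 0.123 and 0.0968), those of Ccl5 and Ccl8 also without control replicate 2 (0.0659 and 0.0665) and that of Ccl5 without control replicate 3 (0.0613). With recovered read counts edgeR called 1 ligand (Ccl2) and DESeq2 9 (Ccl2, Ccl3, Ccl5, Ccl6, Ccl7, Ccl8, Ccl9, Ccl20 and Cxcl5). A fit to the 6 libraries of d14 alone called 0, and with Y-linked expression as a covariate only Ccl7 was called (-2.59, adjusted p = 0.0232). Y-linked mRNA was present in 0 IKKβ∆Tub and 2 control libraries of d14, and the part of sex was not tested beyond this. The spread between IKKβ∆Tub libraries of d14 was larger for ligands (median SD 0.64 on the log2 scale) than for all genes (0.31), as it was in control (0.44 and 0.25).

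Whether the strain difference itself changed with time was tested for each ligand. From baseline to d14 it moved for Ccl2 by -3.92 (SE 0.70, adjusted p = 0.0446) and for Ccl7 by -2.69 (SE 0.49, adjusted p = 0.0454), the only 2 of 31 ligands past the test, where 0.116% of all genes passed in either direction and 0.0734% downward. From d2 to d14 it moved for Ccl7 by -3.18 (SE 0.49, adjusted p = 0.0226), where 0.0306% of all genes passed. The median shift over the ligands was -1.04 from baseline and -1.33 from d2, against 0.04 and -0.05 over all genes. Both interactions share the d14 libraries with the strain comparison above. The call of Ccl2 was lost without IKKβ∆Tub baseline replicate 2 or 3, control baseline replicate 1, 2 or 3, IKKβ∆Tub d14 replicate 2, or without control d14 replicate 1 or 2 (adjusted p = 0.0531 to 0.154). The baseline interaction of Ccl7 was lost without IKKβ∆Tub baseline replicate 2 or 3, control baseline replicate 1, 2 or 3, IKKβ∆Tub d14 replicate 2, or without control d14 replicate 1 (adjusted p = 0.0735 to 0.154). Its interaction against d2 was lost without IKKβ∆Tub d2 replicate 1 or 3, control d2 replicate 1 or 3, or without control d14 replicate 1 (adjusted p = 0.0533 to 0.083). Without control d2 replicates 1 and 2 together, which leaves replicate 3 alone, that interaction was -3.22. Fits with Y-linked expression as a covariate or to only the libraries compared also ended the calls of Ccl2 (adjusted p = 0.26 and 0.14) and of Ccl7 from baseline (0.219 and 0.104) and from d2 (0.42 and 0.169). With edgeR the Ccl2 call held (0.0468) and those of Ccl7 did not (0.0787 from baseline and 0.264 from d2). With DESeq2 all of them held. Over all genes DESeq2 called 861 from baseline and 109 from d2, edgeR 39 and 2, and limma 19 and 5.

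Receptors of these ligands were followed as a list of 17 genes, of which 12 were tested. At d2 against baseline 5 rose in IKKβ∆Tub and 4 in control, where 35.4% and 25.4% of all genes rose. At d14 5 rose in IKKβ∆Tub and 9 in control, where 28.3% and 32.5% did. Between strains at d14, 1 of the 12 was lower and 0 higher, where 0.3% of all genes were lower, with a median of -1.09 and 11 of 12 means below control. This was Cxcr2, the neutrophil receptor of Cxcl1, Cxcl2, Cxcl3 and Cxcl5, at 0.00901, 0.000732 and 0.00932 in IKKβ∆Tub and 0.0649, 0.0352 and 0.0328 in control (log2 fold change -2.18, SE 0.43, adjusted p = 0.0392). Ccr2, the monocyte receptor of Ccl2, Ccl7 and Ccl12, was at 0.395, 0.0747 and 0.384 in IKKβ∆Tub and 1.32, 0.679 and 0.761 in control (-1.93, SE 0.53, adjusted p = 0.0935).

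Lists of leukocyte markers also had lower means in IKKβ∆Tub at d14, and their part in the ligand levels was not tested. All 12 macrophage and monocyte markers had lower means in IKKβ∆Tub (median -1.52, 0 past the test), with summed levels of 16.4, 2.93 and 14.4 in IKKβ∆Tub against 36.9, 31.7 and 25.8 in control and no marker at 0 in a whole group. The 4 tested of 9 neutrophil markers were also lower in mean (median -1.87, 0 past the test), with sums of 0.193, 0.0534 and 0.242 in IKKβ∆Tub against 0.914, 0.332 and 0.453 in control, and Mpo was at 0 in all 6 libraries. All 10 T and NK cell markers had lower means (median -1.05, 0 past the test), with sums of 0.187, 0.0688 and 0.262 against 0.524, 0.29 and 0.357 in control. The 4 tested B cell markers (median -0.57) and the 4 dendritic cell markers (median -0.58) had lower means as well, with 0 past the test. Replicate 2 of IKKβ∆Tub, which held the lowest level for 22 of 31 ligands, had the lowest sum of the macrophage, neutrophil and T cell lists.

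Markers of tubular segments had higher means in IKKβ∆Tub, and their part in the ligand levels was not tested either. All 8 proximal tubule markers had higher means in IKKβ∆Tub at d14 (median 0.82, 0 past the test), with sums of 27.4, 68.7 and 31.9 in IKKβ∆Tub against 25, 19.8 and 20.4 in control. For the thick ascending limb and distal nephron all 6 had higher means (median 1.45, 0 past the test), with sums of 24.7, 125.2 and 28 in IKKβ∆Tub against 13.8, 23.9 and 33.3 in control. All 8 tubular injury markers had lower means (median -1.37, 0 past the test), with sums of 19.3, 4.66 and 17.2 against 28.3, 25.4 and 20 in control. Replicate 2 of IKKβ∆Tub was again the extreme library of these 3 lists. Of endothelial markers 6 of 7 had higher means (median 0.25), and of fibroblast and stromal markers 6 of 8 had lower means (median -0.92), with 0 past the test. Of 20 other NF-ĸB inducible genes 19 had lower means in IKKβ∆Tub (median -0.78, against -0.05 over all genes) and 0 passed the test. Vcam1 and Lcn2 of this list are also in the tubular injury list. Of 17 interferon response genes 16 had lower means (median -0.44) and 0 passed.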

How the data were processed

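Whole-kidney mRNA was measured in 18 stranded TruSeq libraries. Per the labels and the study's methods, the authors trimmed reads (Trim Galore 0.4), aligned them with STAR 2.5.2b and counted them with featureCounts 1.5.2. The deposited values, a signal that is never negative, are read counts divided by the 90th percentile of the library, and every value was within 0.001 of a whole read. Columns with the authors' own comparisons were not used. Groups follow the labels. Genes at 0.005 or more in at least 3 libraries were tested as log2(value + 0.005), which understates changes of low genes, with limma 3.58.1 in R 4.3.3 (6 groups, 12 residual degrees of freedom, trended variance, Benjamini-Hochberg, threshold 0.05), after a check on simulated data. Recovered reads were tested with edgeR 4.0.16 and DESeq2 1.42.0 as alternatives. Other alternatives were another pseudocount, filters, rescaling, a replicate block, a Y-linked covariate, no trend, only the libraries compared, and leaving out libraries. Counting intervals and the floor of 3 reads cover counting error only. The ligands and the lists were chosen with earlier results of these data known. Values by library are given for ligands past, or at unadjusted p under 0.05 in, a strain test, the 5 largest changes in each direction over time, and 10 ligands listed by name. A gene of the receptor list is not reported here.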

Additional observations from a re-analysis of the deposited data

Results flagged for a closer look

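The test of the difference between strain differences marked 3 values. For Ccl2 the strain difference at d14 minus that at baseline was -3.92 on the log2 scale (adjusted p = 0.0446, limma). For Ccl7 it was -2.69 (adjusted p = 0.0454). For Ccl7 the strain difference at d14 minus that at d2 was -3.18 (adjusted p = 0.0226).
None of the 3 was past the test with the Y-linked covariate (adjusted p = 0.26, 0.219 and 0.42), with only the libraries compared (0.14, 0.104 and 0.169) or with the replicate block (0.0725, 0.0947 and 0.0655). Without a filter those from baseline were not either (0.0573 for Ccl2 and 0.0615 for Ccl7). With genes kept at 0.05 or more in 3 libraries the call of Ccl2 held and those of Ccl7 were lost (0.065 and 0.141). A pseudocount of 0.05 ended the call of Ccl7 from baseline (0.0954).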

How the results depend on the processing

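Called or selected ligand changes kept their direction under each alternative run for them. Other uncalled changes were not followed. Of 114 counts of called ligands under 11 other settings, 84 were within 1.5 times the reported count. With genes kept at 0.05 or more in 3 libraries, the counts were 13 (control d14 against baseline), 15 (IKKβ∆Tub d2 against baseline), 9 (IKKβ∆Tub d14 against baseline), 5 (control d14 against d2), 3 (strains at d14), 1 (strain difference at d14 minus baseline) and 0 (minus d2), with fewer genes tested. With a pseudocount of 0.05 they were 9 for IKKβ∆Tub d14 against baseline, 10 for strains at d14 and 4 for the strain difference at d14 minus d2. With only the libraries compared they were 7 for IKKβ∆Tub d14 against baseline and 0 for strains at d14 and both strain differences over time. With the Y-linked covariate they were 9 for IKKβ∆Tub d14 against baseline, 6 for IKKβ∆Tub d14 against d2, 1 for strains at d14 and 0 for both strain differences over time. Without a filter the strain difference at d14 minus baseline gave 0. edgeR gave 1 for strains at d14, 1 for the strain difference at d14 minus baseline and 0 for that minus d2. DESeq2 gave 9, 8 and 3, and 1 for strains at baseline. Over all genes these were 5, 39 and 2 with edgeR and 501, 861 and 109 with DESeq2, against 60, 19 and 5 with limma. For strains at baseline DESeq2 called 738 genes and limma 7. Without both control d2 libraries in doubt only replicate 3 stood for control d2, so no count is given for the strain difference at d14 minus d2. Beyond fewer genes or libraries, the cause was not tested. Leaving out 1 library gave 18 to 21 and 21 to 23 in control and 20 to 27 and 7 to 15 in IKKβ∆Tub (d2 and d14 against baseline), 9 to 15 in IKKβ∆Tub and 7 to 9 in control (d14 against d2), 0 for strains at baseline and d2, 2 to 12 at d14, and 0 to 8 and 0 to 4 for the strain differences over time. Replicate numbers did not pair the libraries (median correlation of same-numbered deviations -0.0142, over 0.1 in 9 of 45 pairs). With the replicate block the strain differences over time gave 0 and 0 (adjusted p = 0.0725 for Ccl2 and 0.0947 for Ccl7 from baseline, 0.0655 for Ccl7 from d2), and no other count moved by over 1.5 times. Depths of 12306138 to 25933188 reads after injury limit ligands with few reads.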
